A study of Mus musculus with 8 samples.

Results

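The mRNA levels of 10 macrophage marker genes were followed in the lacrimal gland (LG), the gland that makes the watery part of the tears, of mice on a full or a restricted diet. The markers, chosen by name, were Csf1r, Adgre1, Itgam, Cd14, Cd68, Mrc1, Cd163, Mpeg1, Aif1 and Ms4a7, and all 10 were found among the 24552 genes of the count table. Each of the 8 libraries was made from LG RNA of female C57BL/6J mice aged 10 to 11 months. The 4 ad libitum (AL) mice ate freely, and the 4 calorie-restricted (CR) mice received 40% less food for 4 months from an age of 6 to 7 months. The restriction was reached gradually. No transgene or deletion is named for either group. The study used animals of different cohorts, housed up to several per pen, and the labels do not say which cohort or pen a library came from, so p-values here measure the spread between these libraries. In the second cohort the CR chow was also enriched in vitamins and micronutrients. Feeding once daily just before the dark phase is described after that cohort, and whether it held for the first is not stated. The libraries were made from the 3' ends of mRNAs, so a count does not tell which isoform it came from. Ratios between the counts of different genes are used only to compare libraries with each other.

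Macrophages are phagocytes that live in nearly every tissue, where they clear dead cells and debris, sense microbes and present antigen. Most depend on signalling through the receptor encoded by Csf1r, whose ligands are CSF1 and IL-34, and on the transcription factor PU.1, which binds near many macrophage genes. In the LG they lie in the connective tissue between the secretory acini and ducts. No marker of the list is restricted to macrophages: Itgam is shared with neutrophils and Mpeg1, Csf1r and Aif1 with some dendritic cells or monocytes. In RNA of a whole gland, fewer macrophages and less of an mRNA per macrophage cannot be told apart.

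The bases before the start of transcription of 4 markers are shown because PU.1 is the factor most widely tied to macrophage genes, and because these 4 markers cover the largest difference of the list (Ms4a7), 3 matches before the start (Mrc1), and matches on both sides of it (Itgam and Cd68). They are RefSeq promoters on GRCm38.p6, each 250 bases long, ending at the base before the start and written 5′ to 3′ on the gene's own strand. Capitals mark GAGGAA, a form of the PU.1 site whose shorter core is GGAA, or its reverse complement TTCCTC. In Cd68 they also mark TTGCNNAA, a site of the C/EBP factors. The positions are chr2:14229164-14229413 (plus strand) for Mrc1, chr7:128062390-128062639 (plus strand) for Itgam, chr11:69666171-69666420 (minus strand) for Cd68 and chr19:11336147-11336396 (minus strand) for the first start of Ms4a7.
Mrc1: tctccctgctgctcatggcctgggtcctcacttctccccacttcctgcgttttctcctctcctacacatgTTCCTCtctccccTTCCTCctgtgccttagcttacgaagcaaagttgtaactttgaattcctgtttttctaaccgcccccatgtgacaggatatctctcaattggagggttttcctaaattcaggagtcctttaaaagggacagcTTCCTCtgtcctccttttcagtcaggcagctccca
Itgam: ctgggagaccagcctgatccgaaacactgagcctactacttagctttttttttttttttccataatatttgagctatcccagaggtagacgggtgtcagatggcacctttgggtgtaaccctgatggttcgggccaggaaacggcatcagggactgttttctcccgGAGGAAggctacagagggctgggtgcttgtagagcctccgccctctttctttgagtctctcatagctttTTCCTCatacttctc
Cd68: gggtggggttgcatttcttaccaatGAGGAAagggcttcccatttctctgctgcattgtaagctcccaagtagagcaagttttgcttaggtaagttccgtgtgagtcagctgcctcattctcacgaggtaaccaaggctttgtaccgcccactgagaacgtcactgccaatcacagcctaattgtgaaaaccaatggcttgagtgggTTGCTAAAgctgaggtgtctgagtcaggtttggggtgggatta
Ms4a7: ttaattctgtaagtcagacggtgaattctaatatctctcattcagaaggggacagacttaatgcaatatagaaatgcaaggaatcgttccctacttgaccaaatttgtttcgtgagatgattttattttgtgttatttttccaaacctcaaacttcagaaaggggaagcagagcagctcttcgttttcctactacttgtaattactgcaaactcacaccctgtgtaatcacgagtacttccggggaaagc
In Mrc1 the matches begin 180, 167 and 35 bases before the start. Itgam has them 84 and 15 bases before and 33 bases after it, and Cd68 has them 225 bases before and 30 bases after it. The stretch before the Ms4a7 start has no match to GAGGAA, though it holds the shorter GGAA, and the only GAGGAA match begins 44 bases after that start. RefSeq entries were found for 7 of the markers, 8 promoters in all, and 5 of the 8 held GAGGAA on either strand between 250 bases before and 50 bases after the start (those of Aif1, Cd68, Itgam, Mrc1 and 1 of the Ms4a7 promoters). Of all 32851 promoters in the table, 28.3% held it. TTGCNNAA was in 1 of the 8 (Cd68) and in 10.8% of all promoters, and the E-box CACGTG, searched on both strands, was in 0 of the 8 and in 7.15% of all. A match is a description of letters and not of binding.

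Totals were 12051881 to 22156511 counts in the AL libraries and 13720079 to 19310319 in the CR libraries. Levels are given as counts per 1000000 (CPM) of a library size scaled by DESeq2's median-ratio (RLE) factor, and a floor of 3 counts is worth 0.152 to 0.231 CPM, a limit for counting error only. Every marker stood above it in every library, with 10 to 559 counts, and all 10 passed the filter on low counts. Genes of the parotid, a salivary gland, were higher in CR: their mean log2(CPM + 0.5) was 3.78 to 7.99 in AL and 9.93 to 13.48 in CR libraries, without overlap, while their summed levels overlapped, with AL values of 25231.5, 14787.8, 10608.0 and 2015.4 CPM (replicates 1 to 4) against CR values of 214264.8, 236637.0, 186585.5 and 19821.4 CPM. Since that mean parts the diets, diet and parotid mRNA cannot be told apart in these libraries, which holds for every difference between the diets given here. CR replicate 4 had the smallest parotid level among the CR libraries.

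The mean level was lower in CR than in AL LGs for 9 of the 10 macrophage markers and higher for Cd163, but no marker passed the test in the fit of all 8 libraries. With the study's thresholds (1.5-fold and an adjusted p under 0.05), edgeR's quasi-likelihood fit over all genes called 0 of 10 markers lower and 0 higher after Benjamini-Hochberg adjustment, where 0.785% of the 11211 genes tested were called lower and 1.2% higher. With scaling by totals without the 50 most counted genes these were 1.06% and 0.91%, still with 0 markers called. At an unadjusted p under 0.05, 5 of the 10 markers (Ms4a7, Adgre1, Mpeg1, Cd68 and Mrc1) were lower and 0 higher, against 8.1% and 8.62% of all genes. DESeq2 called 2 of them, Ms4a7 and Adgre1, lower and 0 higher, against 2.83% and 3.45% of all genes, and limma voom called 0 in either direction, against 1.43% and 2.11%. The fitted log2 fold change was negative for 9 of the 10 markers, as for 48.9% of all genes, and its median was -0.82 over the markers and 0.01 over all genes. Without AL replicate 3, the library highest in most markers, the median over the markers was -0.49. With the parotid level as a term in edgeR's model it was -0.44, and 0 of the 5 markers kept an unadjusted p under 0.05 (0.187 for Ms4a7 to 0.645 for Mpeg1).

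**Figure D1:**
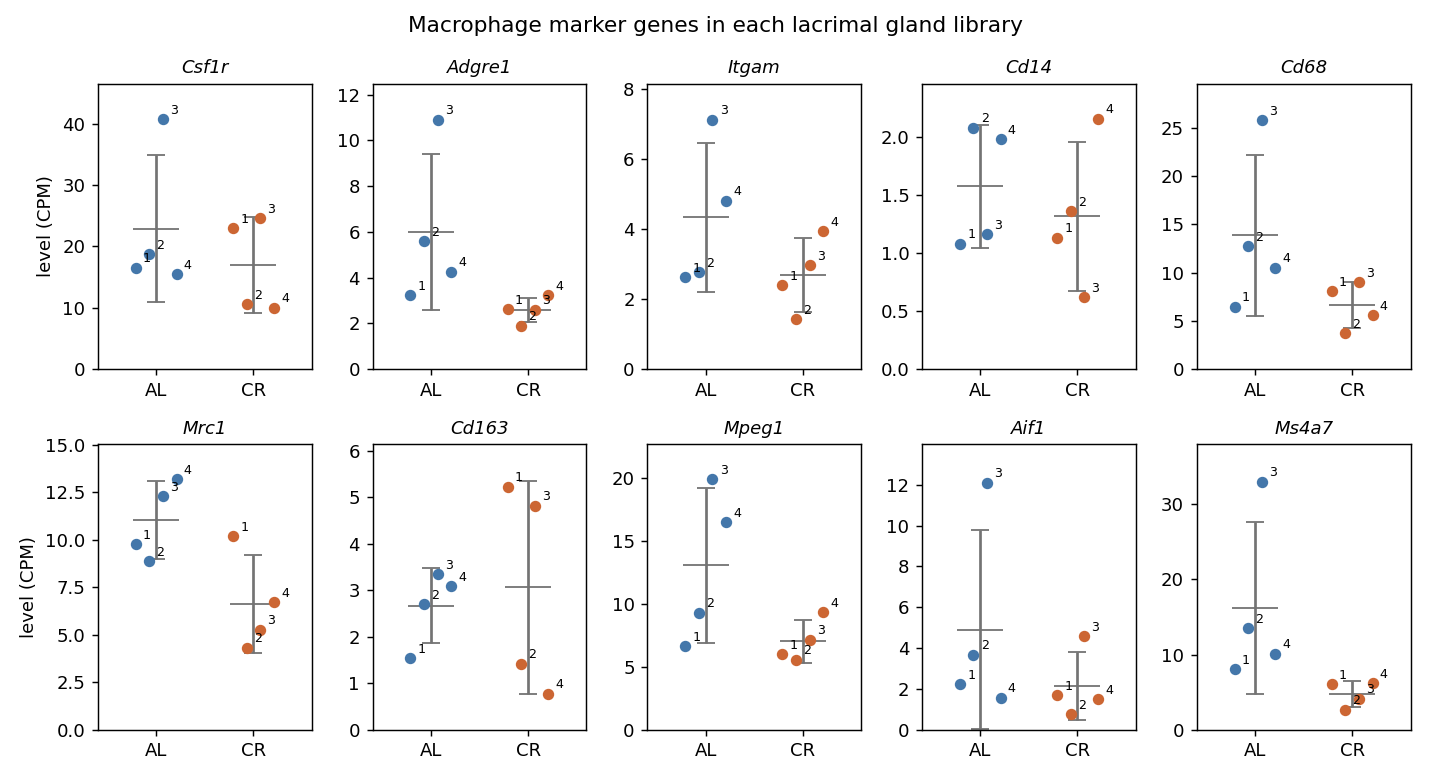
Level of each of the 10 macrophage markers in CPM (vertical axes, each from 0) in the 4 AL (blue) and 4 CR (orange) libraries, numbered by replicate, with the mean as a wide line and ± 1 SD as the bar. In 7 of the 10 markers AL replicate 3 is the highest library, and only for Adgre1 and Ms4a7 do all CR libraries lie below all AL libraries (under TMM scaling only for Ms4a7).

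Csf1r, the receptor for CSF1 and IL-34 that macrophages need to survive, had levels of 16.5, 18.7, 40.7 and 15.4 CPM in the AL libraries (replicates 1 to 4, as for all values below) and of 22.9, 10.5, 24.6 and 10.0 CPM in the CR libraries. The groups overlapped: CR replicates 1 and 3 lay above 3 of the AL libraries, and AL replicate 3 lay far above all others. Means were 22.8 ± 12.0 CPM in AL and 17.0 ± 7.81 CPM in CR (SD, n = 4 per diet, as for every mean below). The log2 fold change of CR against AL was -0.43 (SE 0.37, 95% interval -1.24 to 0.38, adjusted p = 0.633), and without AL replicate 3 it was 0.00. Csf1r shares exon positions with Hmgxb3 on the opposite strand, and whether the counting used strand is not given in the sources used here.

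Adgre1 encodes F4/80, the adhesion G protein-coupled receptor by which mouse macrophages are usually recognised. The gene lies at chr17:57358691-57483527 on the plus strand of GRCm38. Its level was 3.23, 5.58, 10.9 and 4.26 CPM in the AL libraries and 2.61, 1.89, 2.60 and 3.22 CPM in the CR libraries. All 4 CR libraries lay below all 4 AL libraries, although AL replicate 1 and CR replicate 4 differed by less than 1 count's worth and changed order under TMM scaling. Means were 6.00 ± 3.42 CPM in AL and 2.58 ± 0.542 CPM in CR, and the fitted log2 fold change was -1.21 (SE 0.38, 95% interval -2.05 to -0.38, adjusted p = 0.128). DESeq2 put the adjusted p of Adgre1 at 0.0443, a call that was lost when AL replicate 2 or 3 or CR replicate 1, 2 or 3 was left out (adjusted p of 0.0997 to 0.314). Without AL replicate 3 the log2 fold change was -0.76.

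Itgam and Cd14 serve in adhesion and sensing. Itgam encodes CD11b, the alpha chain of complement receptor 3, and lies at chr7:128062640-128118491 on the plus strand. Its level was 2.62, 2.76, 7.13 and 4.81 CPM in AL and 2.40, 1.42, 2.97 and 3.94 CPM in CR, so that CR replicates 3 and 4 lay within the AL range. Its log2 fold change was -0.69 (SE 0.41, 95% interval -1.58 to 0.21, adjusted p = 0.448), and without AL replicate 3 it was -0.35. Of the 75-base windows in the last 600 bases of Itgam transcripts, 29.3% were shared with the overlapping gene Gm49368 on the same strand, which makes its count uncertain. Cd14, which hands bacterial lipopolysaccharide to TLR4, was the least counted marker, with 10 to 39 counts per library. It stood at 1.08, 2.08, 1.16 and 1.98 CPM in AL and at 1.13, 1.36, 0.618 and 2.16 CPM in CR, and the highest library was CR replicate 4. Its log2 fold change of -0.26 (SE 0.48) had an interval of -1.31 to 0.79 and an adjusted p of 0.856, so the interval includes a difference of 1.5-fold in either direction.

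Cd68 encodes macrosialin, a glycoprotein of late endosomes and lysosomes (chr11:69664213-69666153, minus strand). Its level was 6.47, 12.7, 25.8 and 10.5 CPM in AL and 8.06, 3.73, 8.97 and 5.60 CPM in CR. Only AL replicate 1 reached into the CR range, and CR replicate 2 was the lowest library. Means were 13.9 ± 8.38 and 6.59 ± 2.38 CPM, with a log2 fold change of -1.08 (SE 0.40, 95% interval -1.94 to -0.22, adjusted p = 0.186). Without AL replicate 3 the log2 fold change was -0.60.

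Mrc1 and Cd163 are the scavenging receptors of the list. Mrc1 encodes the mannose receptor CD206 (chr2:14229392-14332057, plus strand), which takes up glycoproteins. Its level was 9.77, 8.88, 12.3 and 13.2 CPM in AL and 10.2, 4.32, 5.26 and 6.71 CPM in CR. The AL libraries varied least here of all markers, with an SD of 18.4% of the mean, and only CR replicate 1 lay in their range. Means were 11.0 ± 2.03 and 6.62 ± 2.57 CPM, and the log2 fold change was -0.74 (SE 0.28, 95% interval -1.35 to -0.14, adjusted p = 0.193). Leaving out AL replicate 3 moved it only to -0.69.

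Cd163, the receptor that clears haemoglobin bound to haptoglobin (chr6:124304656-124330527, plus strand), was the only marker with a positive fitted value. Its level was 1.54, 2.70, 3.35 and 3.09 CPM in AL and 5.23, 1.42, 4.82 and 0.777 CPM in CR. The CR libraries fell on both sides of the AL range: replicates 1 and 3 above every AL library, and replicates 2 and 4 below every AL library. Means were 2.67 ± 0.799 and 3.06 ± 2.29 CPM, and the log2 fold change of 0.19 (SE 0.54, 95% interval -1.0 to 1.37, adjusted p = 0.917) turned to -0.19 without CR replicate 1 and to -0.12 without CR replicate 3.

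Mpeg1 encodes perforin-2, a pore-forming protein that acts on engulfed bacteria (chr19:12460779-12465283, plus strand). Its level was 6.62, 9.31, 19.9 and 16.5 CPM in AL and 6.01, 5.56, 7.17 and 9.32 CPM in CR. CR replicates 3 and 4 lay above AL replicate 1, and otherwise the AL libraries were higher except that CR replicate 4 and AL replicate 2 were level. Means were 13.1 ± 6.18 and 7.01 ± 1.68 CPM, and the log2 fold change was -0.90 (SE 0.33, 95% interval -1.61 to -0.18, adjusted p = 0.184).

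Aif1 encodes IBA1, a calcium-binding protein of the actin cytoskeleton (chr17:35170991-35176068, minus strand). Its level was 2.23, 3.68, 12.1 and 1.57 CPM in AL and 1.70, 0.769, 4.58 and 1.5 CPM in CR. AL replicate 3 stood at 4.85 times the mean of the other AL libraries, the highest such ratio among the markers, and the CR library highest in Aif1, also replicate 3, lay above 3 of the AL libraries. Its log2 fold change of -1.19 (SE 0.66, 95% interval -2.63 to 0.26, adjusted p = 0.412) was -0.23 without AL replicate 3.

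Ms4a7, a 4-pass membrane protein gene of the MS4A family (chr19:11321039-11336146, minus strand), differed most between the diets. Its level was 8.08, 13.5, 33.0 and 10.1 CPM in the AL libraries and 6.08, 2.66, 4.14 and 6.16 CPM in the CR libraries. All CR libraries lay below all AL libraries, with 6.16 CPM in CR replicate 4 and 8.08 CPM in AL replicate 1 as the nearest values. Means were 16.2 ± 11.4 and 4.76 ± 1.68 CPM, and the fitted level was 3.39-fold lower in CR (log2 fold change -1.76, SE 0.43, 95% interval -2.70 to -0.83). The adjusted p of Ms4a7 was 0.0593, just outside the threshold. It passed with DESeq2 (adjusted p = 0.00202), without the filter on low counts (adjusted p = 0.0146) and without CR replicate 4 (adjusted p = 0.0318). It missed with limma voom (adjusted p = 0.0517). EdgeR also missed it with TMM factors (0.0592), upper-quartile factors (0.0561) and totals without the 50 most counted genes (0.0512). Without any single library other than CR replicate 4, edgeR missed it at adjusted p up to 0.183. Without AL replicate 3 the log2 fold change was -1.16 (adjusted p = 0.132). With DESeq2 it also passed without AL replicate 3, at an adjusted p of 0.0336. Across the list, Ms4a7 and Adgre1 were the 2 markers whose groups did not overlap, against 5.2% of all genes tested that lay wholly lower in CR, and 0 markers lay wholly higher, against 4.58%. A two-sided exact permutation test of the log2 levels gives any gene without overlap its smallest p for 4 libraries against 4, 0.0286, and so adds nothing for these 2. The permutation p was 0.0857 for Mrc1, 0.114 for Cd68, 0.143 for Mpeg1 and 0.200 to 0.857 for the other 5.

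**Figure D2:**
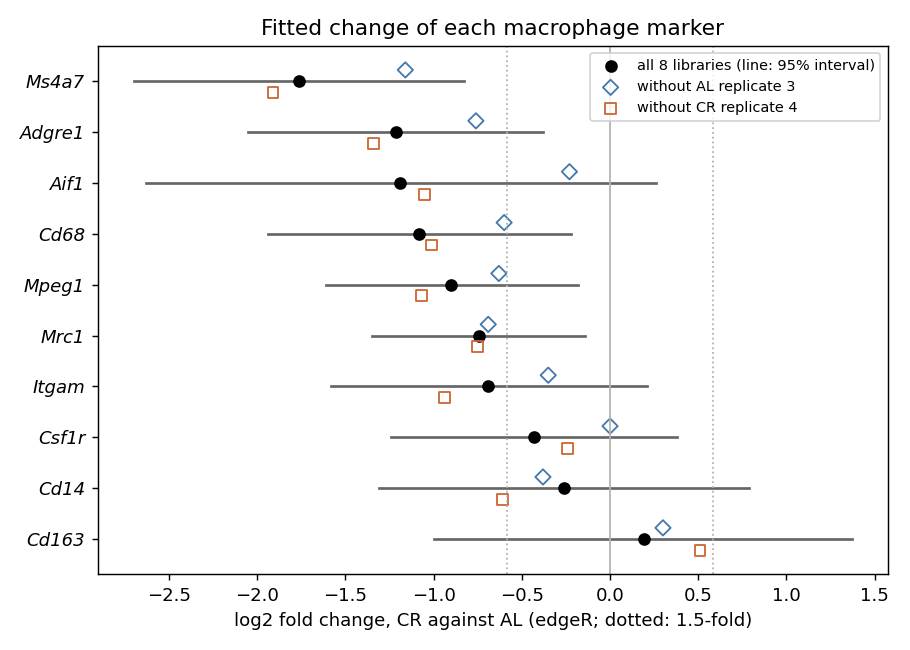
Fitted log2 fold change of CR against AL for each marker (horizontal axis), with its 95% interval from all 8 libraries (black), and without AL replicate 3 (diamonds) or CR replicate 4 (squares); dotted lines stand at 1.5-fold. The values run from -1.76 for Ms4a7 to 0.19 for Cd163, and without AL replicate 3 every marker but Cd14 lies further to the right.

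The same libraries were high or low in most of the markers. AL replicate 3 was the highest of the 8 libraries in 7 of the 10 markers, where 17.5% of all genes tested had their highest level there, and CR replicate 2 was the lowest in 7, where 14.2% of all genes had their lowest. The summed level of the 10 markers was 58.2, 80.0, 166.4 and 81.4 CPM in AL and 66.3, 33.6, 65.7 and 49.4 CPM in CR, so that AL replicate 1 lay within the CR range. AL replicate 3 was above the mean of the other AL libraries in 9 of the markers, by 1.16 times for Mrc1 to 4.85 times for Aif1, and below it only for Cd14, at 0.680 times. CR replicate 2 lay below every AL library in 9 of the 10 markers, CR replicate 4 in 7, and CR replicates 1 and 3 in 4 each, where 22.8% to 25.8% of all genes did so.

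**Figure D3:**
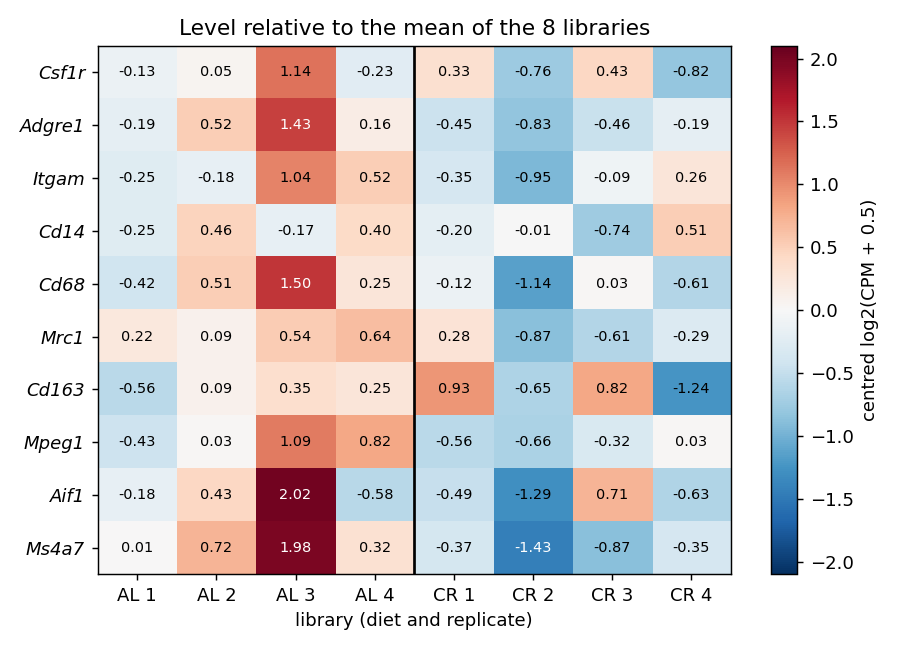
Centred log2(CPM + 0.5) of each marker (rows) in each library (columns), with each gene's mean over the 8 libraries subtracted; red is above and blue below that mean, and the line parts AL from CR. AL replicate 3 is the reddest column, up to 2.02 for Aif1, CR replicate 2 lies below the mean in every marker, from -0.01 for Cd14 down to -1.43 for Ms4a7, and Cd163 is at 0.93 in CR replicate 1 and -1.24 in CR replicate 4.

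Counts set against each other within a library do not depend on how the libraries were scaled. Of all counts on the 10 markers, Ms4a7 made up 13.9, 16.9, 19.8 and 12.4% in AL and 9.17, 7.92, 6.31 and 12.5% in CR, and Csf1r made up 28.4, 23.4, 24.5 and 18.9% in AL and 34.5, 31.2, 37.4 and 20.3% in CR. In both shares CR replicates 1, 2 and 3 lay outside the AL range, Ms4a7 below it and Csf1r above it, and CR replicate 4 lay inside. The ratio of Ms4a7 to Csf1r counts was 0.488 to 0.810 in AL and 0.265, 0.254, 0.169 and 0.613 in CR. Cd163 counts per Ms4a7 count were 0.102 to 0.307 in AL and 0.860, 0.533, 1.16 and 0.126 in CR, where CR replicate 4 again stood with the AL libraries. These ratios were picked after the values were seen and carry no test. CR replicate 4 was also the CR library with the lowest parotid level, and the part of that in these ratios was not tested.

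The growth factors and transcription factors of macrophages had no member that passed edgeR's test, and 2 that passed with DESeq2. CSF1 and IL-34, the ligands of the Csf1r product, had log2 fold changes of 0.48 (adjusted p = 0.593) for Csf1 and 0.14 (adjusted p = 0.912) for Il34, and Csf1 was named for its receptor after values were seen. Of 8 ligands and transcription factors, edgeR called 0, 2 were lower and 1 higher at an unadjusted p under 0.05, and the median log2 fold change was -0.21. The most counted transcription factors of these were Irf8 (log2 fold change -0.89, adjusted p = 0.114), Maf (-0.40, 0.470) and Cebpa (-0.02, 0.976). DESeq2 called Irf8 lower (adjusted p = 0.0465) and Cebpb, a C/EBP factor of myeloid cells, higher (log2 fold change 1.07, adjusted p = 0.0266). Cebpb was 1.77 ± 0.245 CPM in AL and 3.70 ± 0.446 CPM in CR without overlap, and edgeR gave it 1.06 (adjusted p = 0.0986). Spi1, which encodes PU.1, had a log2 fold change of -0.96 (adjusted p = 0.378) with groups that overlapped, and Nr1h3, the oxysterol receptor LXR alpha, one of -1.34 (adjusted p = 0.261) with groups that did not. Cebpb, Spi1 and Nr1h3 were named after values were seen.

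Fc receptors and the ITAM signalling chain, which carry the phagocytic signal from antibody-coated targets, had 1 gene that passed edgeR's test. Of 9 genes 8 were tested, all with negative values and a median log2 fold change of -1.35 (-0.93 without AL replicate 3), and 6 had an unadjusted p under 0.05. Plcg2, the phospholipase C downstream of these receptors and also of the B cell receptor, was that gene, at 6.85, 9.5, 9.54 and 7.40 CPM in AL and 2.05, 3.13, 3.40 and 3.72 CPM in CR. The groups did not overlap, and Plcg2 fell by 1.43 on the log2 scale (SE 0.26, adjusted p = 0.0208). The call was lost without AL replicate 2 or 3 or CR replicate 2 or 3, at adjusted p up to 0.0835. Tyrobp, the adaptor DAP12, had a log2 fold change of -1.07 (adjusted p = 0.145), Fcgr3 of -1.05 (adjusted p = 0.201) and Fcer1g of -0.59 (adjusted p = 0.518). DESeq2 called Plcg2 and also Syk, the kinase bound by ITAMs, lower (log2 fold change of Syk -1.31, adjusted p = 0.0197 with DESeq2 and 0.0914 with edgeR). Without AL replicate 3 the log2 fold changes were -0.58 for Tyrobp, -0.54 for Fcgr3, -0.16 for Fcer1g and -0.91 for Syk.

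The lysosomal genes that are abundant in macrophages lay on both sides of 0. Of 13 tested, edgeR called 1 lower and 0 higher, and their median log2 fold change was 0.07. Lyz2, the lysozyme of myeloid cells, fell from 18.0 ± 6.33 CPM to 6.44 ± 2.04 CPM (log2 fold change -1.48, SE 0.30, adjusted p = 0.0312), a call kept without AL replicate 1 or CR replicate 4 and lost without any other library, at adjusted p up to 0.116. Its libraries did not overlap, at 9.93, 16.9, 20.2 and 25.0 CPM in AL and 5.16, 5.38, 5.75 and 9.49 CPM in CR, and 5.70% of its 75-base windows were shared with Lyz1. Ctss, the cathepsin that trims the MHC class II invariant chain, had a log2 fold change of -1.22 (adjusted p = 0.132, and 0.0278 with DESeq2, a call). Without AL replicate 3, where Ctss was at 274.8 CPM against 61.6 to 112.0 CPM in the other AL libraries, it was -0.62 (adjusted p = 0.309). By contrast, Ctsd (0.16), Grn (0.10) and Lamp1 (0.07), which most cells use, had log2 fold changes near 0.

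The C1q subunits, complement proteins made largely by macrophages, kept close to the markers library by library. The summed counts of C1qa, C1qb and C1qc were 0.974, 0.998, 0.966 and 0.950 times the summed marker counts in AL and 0.915, 1.1, 0.988 and 0.937 times in CR, and the groups overlapped. All 3 subunits were lower at an unadjusted p under 0.05 and 0 passed the adjusted test with edgeR or DESeq2. Their log2 fold changes were -0.97 (C1qa), -0.85 (C1qb) and -0.66 (C1qc), and -0.35, -0.50 and -0.55 without AL replicate 3, where C1qa was highest at 93.3 CPM.

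Of 9 scavenger and efferocytosis receptors tested, of 14 listed, 0 were called by edgeR or DESeq2 and 2 were lower at an unadjusted p under 0.05, with a median of -0.66 that was -0.18 without AL replicate 3. Gpnmb, a lysosomal membrane glycoprotein, was the most counted of them, at 62.7 ± 34.9 CPM in AL and 30.3 ± 12.2 CPM in CR (adjusted p = 0.152), and its log2 fold change of -1.05 was -0.58 without AL replicate 3. The 6 genes of the beta2 integrins, their anchors and a ligand had a median of -0.98, 3 with an unadjusted p under 0.05 and 0 calls by edgeR. Of these only Itgb2, with a log2 fold change of -0.80 (adjusted p = 0.427), encodes the chain that pairs with CD11b. Itgax, the CD11c chain of macrophages and dendritic cells, had a log2 fold change of -1.89 (adjusted p = 0.0635), the only 1 of the 6 that DESeq2 called (adjusted p = 0.00349), and -1.27 without AL replicate 3 (adjusted p = 0.173). The partners of CD14 in sensing lipopolysaccharide had a median of -0.07 over 6 genes, with Tlr4 at -0.10, Myd88 at -0.04 and 0 calls by edgeR. Lbp, the serum protein that brings lipopolysaccharide to CD14, lay apart from the rest at a log2 fold change of 2.33 (unadjusted p = 0.00572, adjusted p = 0.111). DESeq2 called Lbp higher (adjusted p = 0.0115), and edgeR did so without CR replicate 4 (adjusted p = 0.0187). Lbp was named after its values were seen.

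Of the other MS4A genes, relatives of Ms4a7, 5 of 13 were tested, all negative with a median of -0.54, 1 with an unadjusted p under 0.05 and 0 calls by edgeR. Ms4a6c had a log2 fold change of -1.15 (adjusted p = 0.0917) and was called lower by DESeq2 (adjusted p = 0.0209). Monocyte genes and the ligands of CCR2 had a median of -0.81 over 5 tested genes (-0.24 without AL replicate 3), 1 with an unadjusted p under 0.05 and 0 calls by edgeR or DESeq2. Ccr2, the receptor by which monocytes leave the marrow, had a log2 fold change of -1.20 (adjusted p = 0.159).

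MHC class II genes, which macrophages share with dendritic and B cells, had 3 members that fell in edgeR's fit (7 with DESeq2) and a median log2 fold change of -1.66. Their summed counts were 3.41, 3.90, 4.35 and 3.34 times the summed marker counts in AL and 1.47, 2.71, 2.39 and 2.25 times in CR, without overlap. H2-Aa, H2-Ab1 and H2-Eb1, which encode the chains that hold the peptide, passed the test with log2 fold changes of -1.64, -1.66 and -2.07 (adjusted p = 0.0229, 0.0450 and 0.0343), and all 7 tested genes of the list were lower at an unadjusted p under 0.05. Without AL replicate 3 the log2 fold changes were -1.29, -1.13 and -1.35. These calls were lost without AL replicate 2 or CR replicate 1, 2 or 3, and that of H2-Ab1 also without AL replicate 3, at adjusted p up to 0.158. B cell markers were rare, with 1 of 8 tested (Cd22, at a log2 fold change of -2.99, an unadjusted p of 0.00973 and an adjusted p of 0.138 with edgeR and 0.0204, a call, with DESeq2), summed levels of 2.53 to 12.4 CPM in AL and 0.424 to 1.44 CPM in CR, and their counts per marker count were 0.0939, 0.155, 0.0717 and 0.0311 in AL and 0.0064, 0.0194, 0.0122 and 0.0292 in CR. The same ratio overlapped between the diets for pan-leukocyte genes (1.21 to 1.68 in AL, 1.33 to 2.73 in CR) and T cell markers (0.0423 to 0.0923 and 0.0256 to 0.0827). It also overlapped for Fc receptors and ITAM signalling (0.489 to 0.587 and 0.39 to 0.623). None of these ratios was tested, since the lists were chosen with earlier results of these data known.

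**Figure D4:**
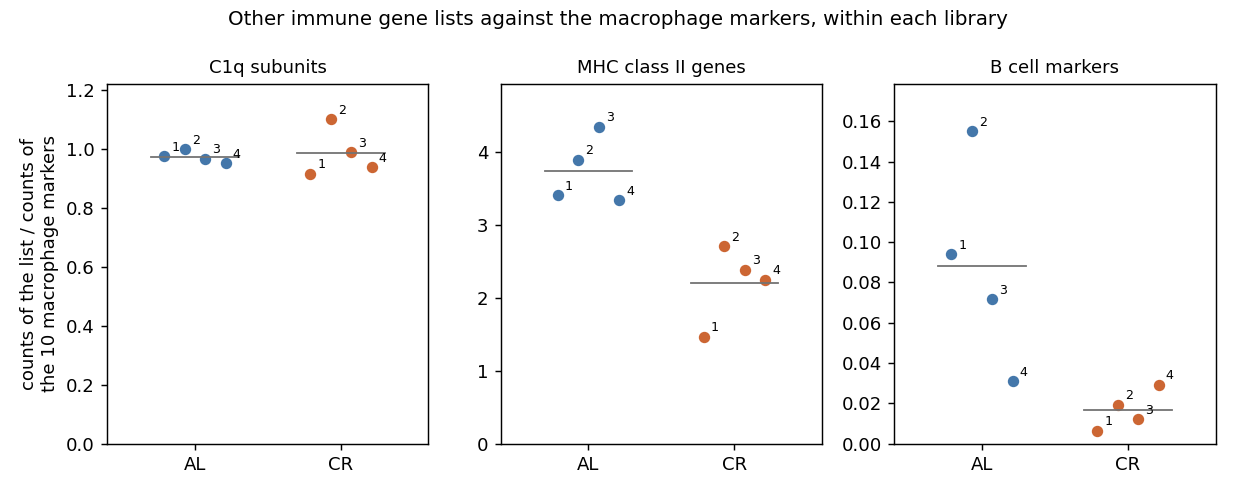
Summed counts of C1q subunits (left), MHC class II genes (middle) and B cell markers (right) per summed count of the 10 macrophage markers, by library (points, numbered by replicate) with the group mean (line). C1q stays between 0.915 and 1.1 in all 8 libraries, MHC class II lies at 3.34 to 4.35 in AL and 1.47 to 2.71 in CR, and B cell markers lie at 0.0311 to 0.155 in AL and 0.0064 to 0.0292 in CR.

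Markers of other cells were set beside the macrophage markers library by library. The 8 pan-leukocyte genes summed to 95.5, 131.6, 200.7 and 136.9 CPM in AL and 88.4, 91.7, 98.6 and 118.1 CPM in CR. Much of each sum was Lcp1, the most counted, at 50.4, 58.9, 49.5 and 69.9 CPM in AL and 46.4, 67.5, 51.3 and 75.9 CPM in CR. The 8 genes had a median of -1.08, 5 lower at an unadjusted p under 0.05 and 0 calls by edgeR. DESeq2 called 3 of them lower, Ptprc (CD45, adjusted p = 0.00304), Cd53 (0.0156) and Cd52 (0.0455), while Lcp1 had a log2 fold change of 0.08. Markers of neutrophils, 1 of the other cell types that carry Itgam, were near 0, with 3 of 9 at 0 in every library. Their sums were 0.551 to 1.62 CPM in AL and 0.591 to 1.89 CPM in CR. Dendritic cell markers summed to 1.23 to 7.86 CPM in AL and 0.990 to 1.83 CPM in CR, highest in AL replicate 3, and 0 of 8 were at 0 in every library. Only 1 of the 8, Batf3, passed the filter and was tested, and neither edgeR (unadjusted p = 0.0874) nor DESeq2 called it. T cell markers summed to 2.46 to 15.4 CPM and 1.44 to 2.78 CPM, again highest in AL replicate 3. Of 9 T cell genes 2 were tested, 1 of them (Cd2) lower at an unadjusted p under 0.05. EdgeR called neither, and DESeq2 gave neither an adjusted p. Their part in the markers' differences was not tested.

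Plasma cells (median -0.84, 6 tested) and mast cells (-1.54, 5 tested) had 0 calls by edgeR, with 4 genes of each lower at an unadjusted p under 0.05. DESeq2 called 1 gene of each lower, Jchain (adjusted p = 0.0339) and Cpa3 (adjusted p = 0.00894). The fibroblast list had 2 genes that fell, Col1a1 (log2 fold change -2.50, adjusted p = 0.00157) and Col3a1 (-2.79, adjusted p = 0.000672), and a median of -0.94. DESeq2 called these and Dpt lower (adjusted p of Dpt 0.0231). Endothelial genes had a median of 0.26, 1 higher at an unadjusted p under 0.05 and 0 calls by edgeR or DESeq2. Adipocyte genes had a median of 1.64, and Fabp4, a fatty acid carrier, rose with a log2 fold change of 2.37 (adjusted p = 0.0208). DESeq2 also called Adipoq, the adipocyte hormone adiponectin, higher (adjusted p = 0.00192). The parotid list had a median of 4.84 and 3 genes that rose, Prb1, Prh1 and Prp2, and DESeq2 called all 6 higher. Of 9 LG epithelial genes, 3 fell (Scgb2b7, Scgb1b7 and Pnliprp1) and the median was 0.12, with Lcn11 at 2336.9 CPM in AL and 1751.9 CPM in CR. DESeq2 called the same 3 lower and Krt18 higher (adjusted p = 0.0312). Over fits without any single library, Col1a1, Col3a1, Prp2 and Pnliprp1 kept their calls in 8 of 8, Prh1 in 6, Scgb2b7 and Scgb1b7 in 4, Fabp4 in 3 and Prb1 in 2. With the parotid level as a term in the model, 0 of 11211 genes were called by edgeR in either direction, 418 were lower and 535 higher at an unadjusted p under 0.05, Ms4a7 had a log2 fold change of -1.40 (adjusted p = 0.707), and Cd14, Itgam and Mpeg1 had positive values of 0.57, 0.61 and 0.29.

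The genes whose pattern over the 8 libraries was most like the mean of the markers were Apoe, Pea15a, Lgals3, Dapp1 and Cybb. Likeness was measured as the root mean square difference between a gene's centred log2(CPM + 0.5) and that mean, which was 0.0596 for Apoe, 0.0887 for Pea15a, 0.120 for Lgals3, 0.130 for Dapp1 and 0.150 for Cybb, against a median of 0.640 over 11201 other genes. Apoe, which encodes apolipoprotein E, stood at 159.1, 236.4, 443.3 and 221.1 CPM in AL and 181.2, 99.3, 181.9 and 153.0 CPM in CR, the same high and low libraries as the markers. Its log2 fold change was -0.78 (adjusted p = 0.213). Among the markers themselves Adgre1 and Cd68 lay nearest to the mean, each at 0.230, and Cd163 and Cd14 furthest, each at 0.660.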

How the data were processed

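The deposited table of counts per gene was made by the authors on the ROSALIND platform from single reads of 75 bases of QuantSeq 3' FWD libraries, with cutadapt for trimming, STAR for alignment to mm10 and HTSeq for counting (versions not given in the sources used here). The log2 values deposited by the authors are log2 of the count divided by the RLE size factor plus 1. Recomputed from the counts they differed by at most 0.0, and only the counts were used. Of 24557 entries 5 repeated symbols were dropped. Of the 24552 genes left, 16735 had at least 1 count and 11211 passed filterByExpr.

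Groups are the diets on the labels. The contrast of CR with AL was fitted with edgeR 4.0.16 (R 4.3.3, RLE factors, quasi-likelihood F test, Benjamini-Hochberg adjustment across the genes tested), with an SE of the log2 fold change over the root of F. The biological coefficient of variation was 34.7%. Alternatives were TMM, upper-quartile and trimmed-total scaling, DESeq2 1.42.0, limma 3.58.1 voom, other filters, no fold-change threshold, thinning, a replicate block, the parotid level as a covariate and leaving out each library.

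The markers and lists were chosen with earlier results of these data known. All markers are named. Of other lists, genes called by edgeR are named, with up to 4 examples by mean level. Genes named because DESeq2 called them, and other genes outside this rule, were chosen after their values were seen. Positions come from GENCODE vM21 on GRCm38, where those of Csf1r and Cd14 are not reported here. The fit was tested on simulated data, of which 11313 genes passed the filter and were tested. No library was simulated as an outlier. At a log2 fold change of 2 it called 46 of 50 genes and at -2 it called 39 of 47, at 1 and -1 it called 15 of 50 and 15 of 46, and it called 1 of 11120 unchanged genes.

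Replicate numbers were not treated as pairs. No 2 libraries of the same diet agreed within sampling noise. Beside the 8 macrophage growth factors and transcription factors counted, 1 gene fixed for that list is not reported here, and the counts and median given for the list do not include it.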

Additional observations from a re-analysis of the deposited data

Results flagged for a closer look

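Csf1r in the AL libraries had 1 library far from the others: AL replicate 3 stood at 40.7 CPM against 15.4 to 18.7 CPM in the other 3, a gap of 0.868 of the whole range, which is above Dixon's 95% critical value for 4 samples. Among 26 groups examined this was the only one, and chance alone gives about 1 in 20.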

How the results depend on the processing

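Called markers, 0 lower and 0 higher, numbered 2 lower with DESeq2, 1 without the filter on low counts, 1 with a replicate block, 0 to 1 without any single library (1 without CR replicate 4), and, in fits chosen after seeing the data, 5 with DESeq2 and the block and 1 to 4 with DESeq2 without any single library. The only marker that edgeR called in any of these was Ms4a7. The block gave it an adjusted p of 0.029. Replicate numbers share deviations only in part (correlations of 0.18, 0.10, 0.28 and 0.51, the second just under 0.1, with 5 of 8 libraries correlating best with their own number), so they were not read as pairs. Markers with no overlap, 2 of 10, numbered 1 (Ms4a7) with TMM factors. The median over the markers ranged from -0.98 to -0.49 without any single library and stayed within 0.44, the SD between libraries of 1 diet, under every alternative run.

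The value of Csf1r went to 0.00 without AL replicate 3 (with edgeR and with DESeq2, in a range of -0.65 to 0.00), and that of Cd163 to -0.00 with limma voom. The sign of Cd163 turned with the block (-0.11), without CR replicate 1 (-0.19) or 3 (-0.12), and with DESeq2 and the block (-0.14). It also turned with DESeq2 without these replicates (-0.19 and -0.11, in a range over single libraries of -0.19 to 0.51). With the parotid covariate, signs turned for Cd14 (0.57), Itgam (0.61) and Mpeg1 (0.29). The causes were not tested.

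Over all genes, 88 called lower and 134 higher became 317 and 387 with DESeq2, 160 and 237 with voom, 165 and 271 without the filter, 312 and 388 with the block, 486 and 537 with DESeq2 and the block, 0 and 0 with the covariate, and 119 and 102, with more lower than higher, when libraries were scaled by totals without the 50 most counted genes. Without any single library they were 25 to 247 lower and 35 to 453 higher, the most without CR replicate 4, and with DESeq2 169 to 517 and 197 to 613. Genes of the other lists, 10 called lower and 4 higher, became 26 and 11 with DESeq2, 23 and 11 with the block, 38 and 10 with both and 0 and 0 with the covariate, and the higher ones 8 without the filter and 2 with at least 10 counts in every library. Without any single library they were 3 to 14 and 1 to 11, and with DESeq2 13 to 30 and 6 to 11. Cd14 had 10 to 39 counts per library, and depth as its limit was not tested.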
